A study of Mus musculus with 7 samples.

Results

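The cytosolic ribosomal protein genes of mouse alveolar macrophages were 81 of the 47643 rows of the deposited expression table. They were the protein-coding rows whose name starts with Rpl or Rps followed by a number and at most a closing a, l, x or y, together with Rplp0, Rplp1, Rplp2 and Rpsa. Of them, 31 belong to the small subunit and 50 to the large one. Alveolar macrophages live on the surface of the air sacs, where they clear particles and surfactant, and their poly(A) RNA had been sequenced from mouse lung in 7 libraries. The genotype cSiah1a/2f/f::Lyz2cre gave 3 libraries, called Lyz2cre below, in which floxed Siah1a and Siah2 are cut by a Cre recombinase driven from the lysozyme gene Lyz2, active in macrophages, monocytes and neutrophils. The genotype cSiah1a/2f/f::CD11ccre gave 1 library, called CD11ccre, in which the same alleles are cut by Cre under the CD11c (Itgax) promoter, active in alveolar macrophages and dendritic cells. The remaining 3 libraries were wild type (WT), labelled CD11c+ F480+ SiglecF+, and the labels do not say whether WT animals carried the floxed alleles or a Cre. The sources used here give no ages or sexes and name no agent.

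Siah1a and Siah2 encode RING-type ubiquitin ligases. Siah1a was listed at 0, 0 and 0.05 TPM in Lyz2cre and 0 in CD11ccre, against 16.59, 6.72 and 13.35 TPM in WT. Siah2 was at 1.95, 1.45 and 1.5 TPM in Lyz2cre and 1.21 in CD11ccre, against 13.56, 12.69 and 17.33 TPM in WT, so both targets went with the labels in every library. TPM, the unit of the table, is a length-scaled share of each library, whose values sum to 1000000. It keeps no record of depth, which is therefore unknown, and between 10883 and 11518 genes reached 1 TPM per library. All 10 alveolar macrophage markers were present, summing to 59407 to 74820 TPM in Lyz2cre and 68074 in CD11ccre, against 23751 to 26759 TPM in WT. That sum includes the abundant Chil3 and does not stand for each marker. In Lyz2cre against WT 4 of the 10 were called higher and 1 lower (limma, described below). Beside that, 2.17% of all genes were called higher and 4.60% lower. The median log2 fold change of the 10 was 0.11, beside -0.16 for all genes. The 4 eosinophil, basophil and mast cell markers were listed at 0 throughout, B and plasma cell markers summed to 0.42 to 2.76 TPM in Lyz2cre and 1.65 in CD11ccre, against 6.78 to 20.42 in WT, and neutrophil markers to 101 to 133 TPM in Lyz2cre and 99.6 in CD11ccre, against 43.5 to 90.8 in WT. The neutrophil sum does not stand for each marker. Of the 3 neutrophil markers tested in Lyz2cre against WT (limma, described below), 1 was called higher and 1 lower. That stood beside 2.17% of all genes called higher and 4.60% lower. Their median log2 fold change was -1.27, and -2.01 in CD11ccre against WT. The part of these cell types in the results was not tested.

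Each cytosolic ribosome joins a small subunit, which reads the messenger RNA, to a large subunit, which forms the peptide bond and holds the exit tunnel. Their proteins are made in near-equal numbers from long-lived, abundant messages that mostly begin with a run of pyrimidines, the TOP motif, through which mTORC1 and Larp1 set their translation. Ribosomal proteins not built into ribosomes are normally degraded, and some of them, Rpl5 and Rpl11 above all, bind Mdm2 and stabilise p53. These genes have also spread across the mouse genome as many processed copies, which lack introns and can be almost identical in sequence.

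That near-identity decides which row of the table a read can be given to, so the sequences are shown first. Each line gives the first 75 coding bases, the read length stated in the labels, from the GENCODE M21 transcripts of GRCm38, and capitals mark the bases that differ within a pair. Rpl5 lies at chr5:107900502-107909005 on the plus strand, and its copy Gm15500, a transcribed processed pseudogene, at chr7:114705217-114706235 on the minus strand. Rps7 lies at chr12:28630854-28635953 on the minus strand, and its copy Gm6472 at chrX:152909505-152910155 on the minus strand. The third pair is a member with its paralogue, Rps27 at chr3:90212522-90213651 on the minus strand and Rps27l at chr9:66946086-66949516 on the plus strand.
Rpl5: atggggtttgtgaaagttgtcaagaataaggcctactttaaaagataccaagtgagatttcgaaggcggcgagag
Gm15500: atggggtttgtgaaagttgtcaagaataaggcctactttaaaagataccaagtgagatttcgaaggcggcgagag
Rps7: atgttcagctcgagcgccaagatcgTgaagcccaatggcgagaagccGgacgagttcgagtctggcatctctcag
Gm6472: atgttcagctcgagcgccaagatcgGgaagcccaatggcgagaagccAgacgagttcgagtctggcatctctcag
Rps27: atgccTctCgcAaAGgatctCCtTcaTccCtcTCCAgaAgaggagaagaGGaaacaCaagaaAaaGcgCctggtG
Rps27l: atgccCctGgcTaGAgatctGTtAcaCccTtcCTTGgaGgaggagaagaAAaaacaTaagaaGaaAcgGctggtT
Rpl5 and Gm15500 differed at 0 of 891 coding bases, so no coding read can tell them apart. Rps7 and Gm6472 differed at 3 of 582 coding bases, 2 of them in the stretch shown. Rps27 and Rps27l differed at 60 of 252, with 22 in the stretch shown, so their coding reads can be told apart more easily.

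Most members have such copies. A search of the GENCODE M21 transcripts for at least 95% identity over at least 80% of each coding sequence found 453 copy rows for 70 members, of which 128 had a mean of at least 1 TPM over the 7 libraries and 38 at least 100 TPM. For 22 members the copy rows held more TPM than the member's own row, and for 33 they held over 10% of the sum. Of the 80 members with an annotated coding sequence, 24 had every stretch of 75 coding bases present in another row, and 6 had none, among them Rpl39l, Rpl3l, Rpl41, Rps3 and Rps9. The sources used here do not state how reads that match several rows were divided. This search was made after the data had been seen.

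**Figure D1:**
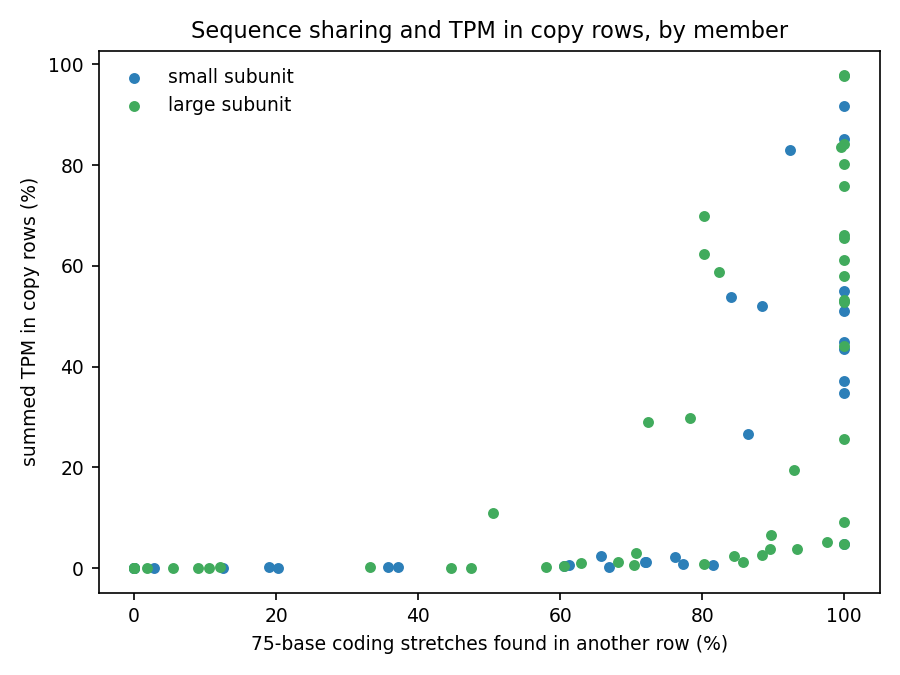
For each member expressed, the share of its 75-base coding stretches found in another row (x axis, %) against the share of its summed TPM, over the member and its copies, that stood in copy rows (y axis, %), with points coloured by subunit. The 20 members with under 50% of stretches shared have at most 0.295% of TPM in copies, and the 24 wholly shared ones run from 4.76% to 97.8%.

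Sequence sharing and copy TPM went together as a description. This follows in part from how copy rows were chosen, by sequence identity in the same transcripts. The 24 wholly shared members had a median of 54.1% of their summed TPM in copy rows, and 21 of them had over 10%. Among the 20 members with under 50% of their stretches shared, the highest share in copies was 0.295%. The exceptions among the wholly shared were Rpl17, Rpl24 and Rps27, each with under 10% of its TPM in copies.

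Several essential members had less TPM in their own rows than in a copy row, and Rpl12 and Rpl5 looked almost silent there. Rpl12, which sits at the base of the stalk that recruits elongation factors, had 24.55, 47.15 and 29.56 TPM in Lyz2cre and 22.76 in CD11ccre, against 16.06, 41.07 and 24.66 TPM in WT. With its copies, led by Gm10275 at a mean of 1313 TPM over all libraries, the sums were 1176, 1437 and 1194 TPM in Lyz2cre and 1057 in CD11ccre, against 1463, 1590 and 1496 TPM in WT. The own-row groups overlapped, and the summed ones did not. Rpl5, which carries the 5S ribosomal RNA into the large subunit together with Rpl11, had 22.54 to 50.78 TPM in its own row, while Gm15500 averaged 1582 TPM. Rps12 had 85.08 to 510.4 TPM beside 2133 TPM for its copy Rps12l1, and Rpl10, which completes the large subunit before it joins the small one, had 308.9 to 459.95 TPM beside 1910 TPM for Rpl10-ps3. Rps23, which lies at the decoding centre, had 171.1 to 443.9 TPM beside 1884 TPM for Rps23-ps1.

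**Figure D2:**
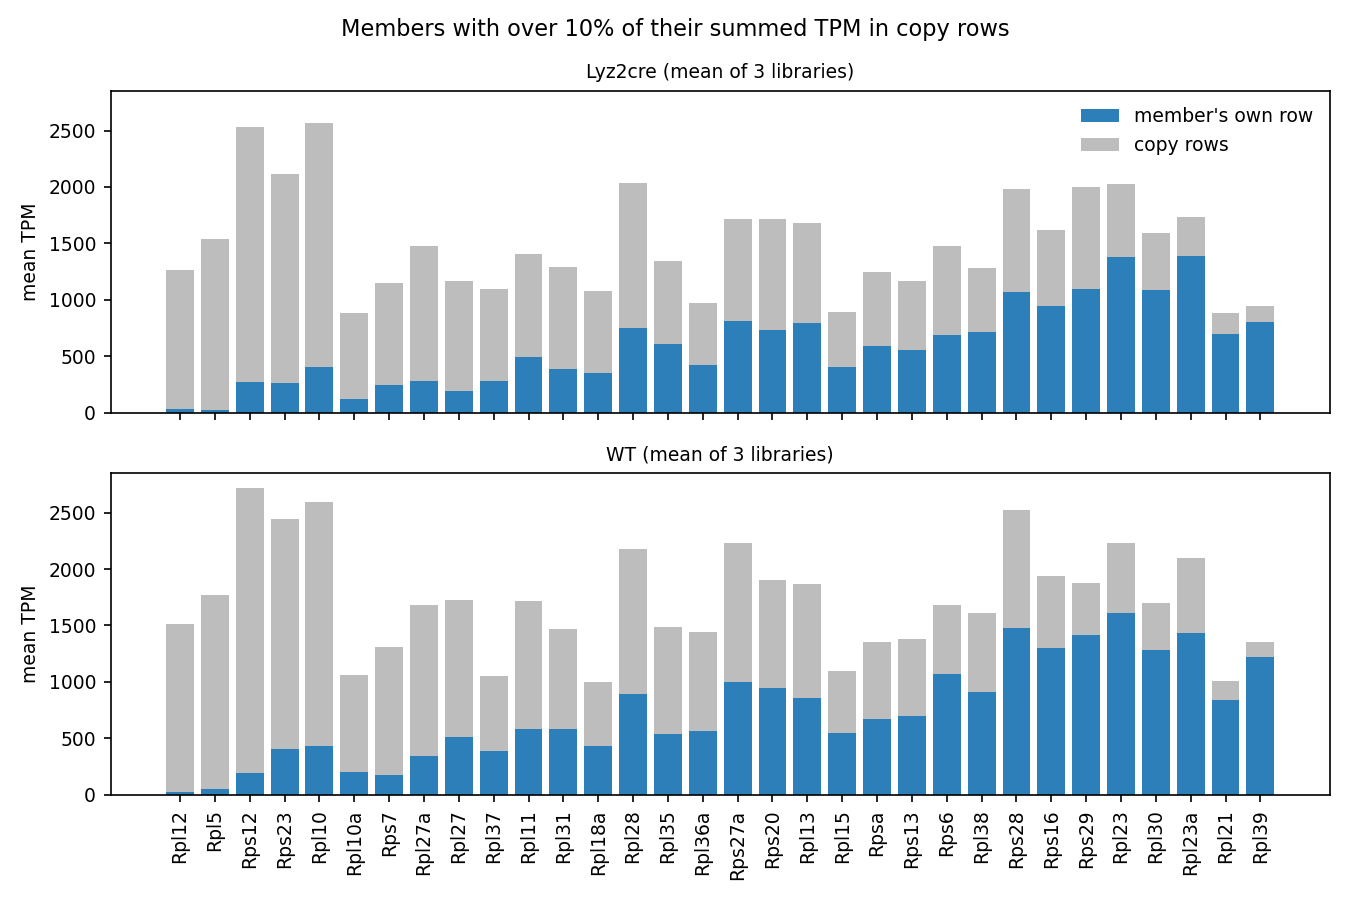
Mean TPM of 32 of the 33 members with over 10% of their summed TPM in copy rows, in Lyz2cre (upper panel, mean of 3 libraries) and WT (lower panel, mean of 3 libraries), as stacked bars of the member's own row and its copy rows, ordered by the copies' share. The bars at the left, Rpl12 and Rpl5, stand almost wholly in copy rows, while Rpl21 and Rpl39 at the right stand mostly in their own.

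Summing each member with its copies evened out the family. Leaving aside Rpl10l, Rpl3l, Rpl39l and Rpl6l, the own rows of the other 77 members spanned 127-fold in Lyz2cre (27.6 to 3516 TPM) and 146-fold in CD11ccre (22.5 to 3284 TPM), against 147-fold in WT (27.3 to 4001 TPM). With copies the span was 11.5-fold in Lyz2cre (307 to 3520 TPM) and 11.3-fold in CD11ccre (290 to 3288 TPM), against 9.86-fold in WT (406 to 4005 TPM). The lowest of the 77 was then Rps27l in each group and the highest Rplp1. The quartiles of the summed values enclosed 1164 to 1716 TPM in Lyz2cre and 1031 to 1488 in CD11ccre, against 1350 to 1956 in WT.

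The most abundant own rows were those of the acidic stalk. Rplp1 had 3175, 4049 and 3322 TPM in Lyz2cre and 3284 in CD11ccre, against 3934, 3996 and 4072 TPM in WT. Rplp2, its partner in the stalk, had 2419, 2927 and 2262 TPM in Lyz2cre and 2188 in CD11ccre, against 3107, 3665 and 2847 TPM in WT. In both genes Lyz2cre replicate 2 stood above its group and reached into the WT range. Rplp0, the anchor of the stalk, was lower, with 1414, 1593 and 1338 TPM in Lyz2cre and 1273 in CD11ccre, against 1603, 1533 and 1427 TPM in WT. In the small subunit Rps14, Rps9, Rps27 and Rps24 were among those with the highest means over all libraries. In the large subunit they belonged to Rplp1, Rplp2, Rpl7, Rpl41 and Rpl26, where Rpl41 is the shortest protein of the ribosome.

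The tissue-restricted paralogues, and Rpl6l, were nearly absent. Rpl10l, which replaces Rpl10 in mouse male germ cells, was listed at 0 in all 7 libraries and was the only member not tested. Rpl3l, the striated muscle paralogue of Rpl3, had 3.60, 3.37 and 2.97 TPM in Lyz2cre and 3.49 in CD11ccre, against 1.52, 8.28 and 8.97 TPM in WT, whereas Rpl3 itself had 686.5 to 895.5 TPM. Rpl39l, a germ-cell paralogue of Rpl39, had 9.07, 5.36 and 8.47 TPM in Lyz2cre and 2.13 in CD11ccre, against 3.35, 6.63 and 7.05 TPM in WT. Rpl6l was listed at 0.80, 0 and 2.20 TPM in Lyz2cre and 0 in CD11ccre, against 5.96, 4.84 and 0.77 TPM in WT. Rps27l, a p53-responsive paralogue of Rps27, was well expressed, with 343.5, 287.1 and 290.3 TPM in Lyz2cre and 290.3 in CD11ccre, against 384.4, 418.2 and 416.6 TPM in WT. Its groups did not overlap, but it did not pass the test described next (log2 fold change -0.41 ± 0.11 SE in Lyz2cre, adjusted p = 0.0691, limma).

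Taken as one sum, the members made up a smaller share of the knockout libraries. They summed to 78863, 87640 and 78317 TPM in Lyz2cre and 72675 in CD11ccre, against 96419, 101037 and 96399 TPM in WT. That is 8.16% ± 0.523 of the library in Lyz2cre (SD, n = 3) and 7.27% in CD11ccre (n = 1), against 9.80% ± 0.267 in WT (SD, n = 3). The groups did not overlap, and Lyz2cre replicate 2 stood nearest to WT. In bulk libraries, fewer cells of a type and less RNA per cell cannot be told apart. With the copy rows the sum was 11.2% ± 0.863 in Lyz2cre and 9.95% in CD11ccre, against 13.1% ± 0.317 in WT. The 2 subunits kept their proportion, with small-subunit TPM at 0.783 to 0.816 of large-subunit TPM in Lyz2cre and 0.788 in CD11ccre, against 0.810 to 0.827 in WT.

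**Figure D3:**
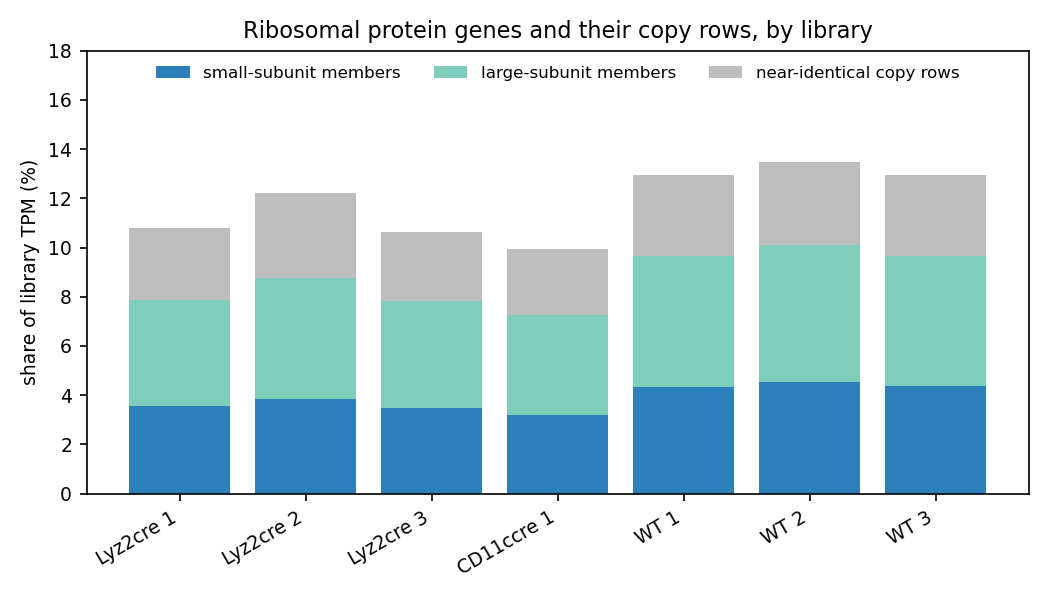
Share of library TPM (%, y axis from 0) held by small-subunit members, large-subunit members and their near-identical copy rows, stacked for each of the 7 libraries (x axis: Lyz2cre, CD11ccre, WT). Members without copies average 8.16% in Lyz2cre and stand at 7.27% in CD11ccre, against 9.80% in WT, while copies add 3.04% in Lyz2cre and 2.68% in CD11ccre, against 3.33% in WT.

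Because TPM is a share, the sum moves with whatever else fills a library. Ftl1, Fth1 and Chil3, which encode the ferritin chains and a chitinase-like protein, together took 15.4% ± 0.939 of Lyz2cre and 13.99% of the CD11ccre library, against 5.06% ± 0.204 of WT. The mitochondrially encoded genes took 3.77% ± 0.996 of Lyz2cre and 4.23% of CD11ccre, against 8.56% ± 0.902 of WT. In the rest of the library, with these and Lyz2 set aside, the members held 10.1% ± 0.523 in Lyz2cre and 9.47% in CD11ccre, against 11.3% ± 0.340 in WT. Median-of-ratios scaling, which sets the median gene level between libraries, gave size factors of 0.930 to 0.997 for Lyz2cre and 0.882 for CD11ccre, against 1.07 to 1.13 for WT. After it the sums were 79133, 89221 and 84183 in Lyz2cre and 82399 in CD11ccre, against 85334, 94016 and 88017 in WT, and Lyz2cre and WT overlapped.

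Single members were tested in Lyz2cre against WT with limma on log2(TPM + 1), in one fit over all 7 libraries and 11397 genes with a mean of at least 1 TPM, calling a gene at a Benjamini-Hochberg adjusted p under 0.05 over all genes. Of 80 members tested, 11 were called lower and 0 higher, beside 4.60% of all genes called lower and 2.17% called higher. The 11 are 3 small-subunit members, Rps16 and Rps28 among them, and 8 large-subunit members (Rpl5, Rpl7, Rpl9, Rpl10a, Rpl17, Rpl27, Rpl31, Rpl39). At an unadjusted p under 0.05 the counts were 39 lower and 0 higher, and with median-of-ratios scaling 13 lower and 1 higher (limma). The share of all genes at that cutoff is not given, here or with later counts at an unadjusted p. Such counts are therefore not read as a result about the members or lists. Values of the 3 Lyz2cre libraries lay wholly below the 3 WT ones for 43 of 80 members (53.8%), beside 23.3% of all genes tested, and wholly above for 0, beside 7.45%. Nothing in the labels ties replicates to separate animals, so these p-values speak only of the spread among the libraries at hand.

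The typical shift was small. The median log2 fold change of members in Lyz2cre against WT was -0.27, beside -0.16 for all genes tested, and 69 of 80 members lay below 0, beside 67.0% of all genes. The small and large subunits had like medians, -0.29 over 31 and -0.26 over 49 members. With median-of-ratios scaling, which moves the median of all genes to -0.00, the member median was -0.09 and 1 member, Rpl5, was called lower, beside 1.85% of all genes lower and 2.97% higher. The Lyz2cre libraries then lay wholly below WT for 15 of 80 members, beside 12.5% of all genes, and wholly above for 3, beside 13.8%. The count of 11 also fell when any 1 of the Lyz2cre or WT libraries was left out, which also lowers the residual degrees of freedom. Leaving out Lyz2cre replicate 1, 2 or 3 gave 1, 1 and 2 in that order, and leaving out WT replicate 1, 2 or 3 gave 4, 0 and 6. The shares of all genes called in those fits are not given here. The member median then stayed between -0.34 and -0.24.

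Among the members called lower, Rpl7 had almost no TPM in copies (0.196%). Rpl7, which binds ribosomal RNA in the large subunit, had 1801, 1695 and 1809 TPM in Lyz2cre and 1830 in CD11ccre, against 2343, 2461 and 2440 TPM in WT. Its groups were apart and each was tight, and its log2 fold change in Lyz2cre was -0.45 ± 0.08 (SE, adjusted p = 0.0242, limma). With median-of-ratios scaling the adjusted p was 0.166.

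Rpl17, Rpl9 and Rpl39 had between 4.82% and 10.9% of their TPM in copies. Rpl17, at the mouth of the exit tunnel, had 1253, 1055 and 1159 TPM in Lyz2cre and 1031 in CD11ccre, against 1665, 1935 and 1737 TPM in WT. It was 0.650 of its WT mean in Lyz2cre (log2 fold change -0.62 ± 0.11 SE, adjusted p = 0.0190, limma), and with copies the change was again -0.62. Rpl9 had 1144, 1048 and 1076 TPM in Lyz2cre and 1033 in CD11ccre, against 1664, 1473 and 1397 TPM in WT. Rpl39, which lines the tunnel, had 783.9, 833.3 and 808.1 TPM in Lyz2cre and 760.0 in CD11ccre, against 1099, 1179 and 1387 TPM in WT. Its call was lost with copies (log2 fold change -0.52, adjusted p = 0.0512, limma).

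The other called members named here had a larger share of their TPM in copies. Rpl27 (chr11:101442298-101445529, plus strand), a large-subunit protein, had the largest fall among them, with 202.6, 118.1 and 270.3 TPM in Lyz2cre and 234.0 in CD11ccre, against 480.3, 442.2 and 624.3 TPM in WT (log2 fold change -1.45 ± 0.29 SE in Lyz2cre, adjusted p = 0.0334, limma). With its copies, led by Gm11518 at a mean of 929 TPM, it had 1115, 1149 and 1229 TPM in Lyz2cre and 1145 in CD11ccre, against 1609, 1683 and 1876 TPM in WT. The groups stayed apart, and the change was -0.56 ± 0.09 (SE, adjusted p = 0.0178, limma). Rpl27 was thus called on both scales, with a smaller log2 change once copies were counted.

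Rpl5 was lower in its own row and not called with copies. It had 24.73, 27.90 and 30.18 TPM in Lyz2cre and 22.54 in CD11ccre, against 47.25, 49.51 and 50.78 TPM in WT (log2 fold change -0.81 ± 0.13 SE in Lyz2cre, adjusted p = 0.0144, limma). With Gm15500, the pseudogene shown above with the same coding sequence, and its other copies it had 1614, 1404 and 1599 TPM in Lyz2cre and 1443 in CD11ccre, against 1897, 1789 and 1615 TPM in WT (log2 fold change -0.20 ± 0.10 SE, adjusted p = 0.278, limma). The groups then nearly touched. Copy rows held 97.8% of that sum over all libraries.

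The calls of Rpl10a, Rpl31, Rps16 and Rps28 were likewise lost with copies. Rpl10a, which forms the mobile stalk beside the exit site, had a log2 fold change of -0.79 in its own row and -0.28 with copies (adjusted p = 0.222, limma). For Rpl31, beside the tunnel exit, the values were -0.58 and -0.18 (adjusted p = 0.361). For Rps16, whose tail touches the transfer RNA at the decoding site, they were -0.46 and -0.27 (adjusted p = 0.151), and for Rps28 they were -0.46 and -0.35 (adjusted p = 0.207). In all 4 the Lyz2cre mean stayed under that of WT with copies as well, although with median-of-ratios scaling on top Rpl31 turned to 0.01 (adjusted p = 0.983).

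**Figure D4:**
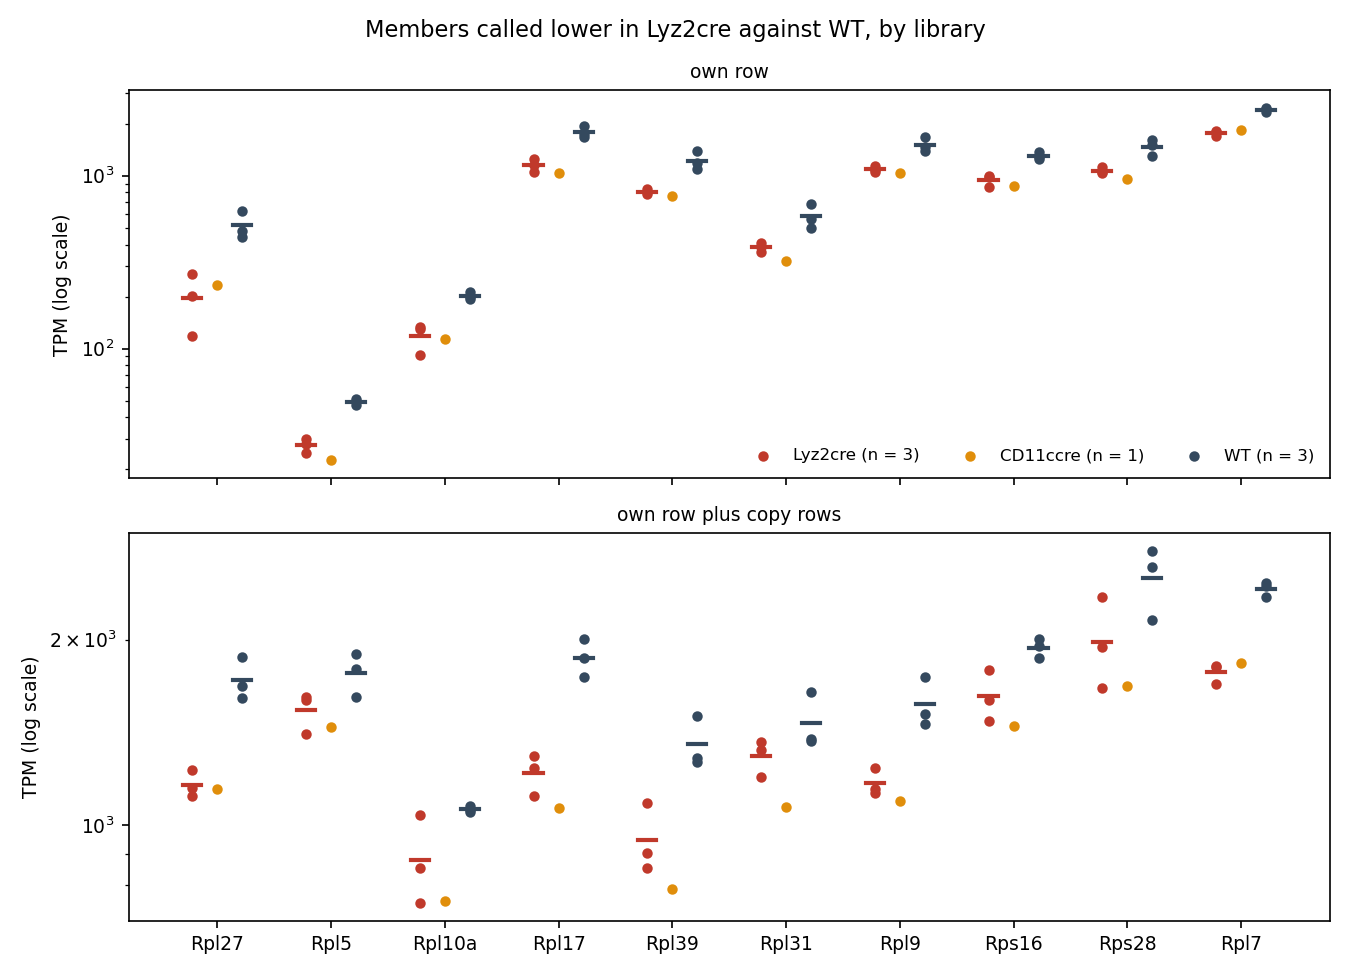
TPM (log scale) of 10 of the 11 members called lower in Lyz2cre against WT, in their own row (upper panel) and with copy rows added (lower panel), with one point per library and a bar at the mean of each group of 3. Libraries of Lyz2cre and WT do not overlap in the upper panel, and with copies Rpl5, Rpl10a and Rpl31 come close and Rps28 overlaps. With median-of-ratios scaling only Rpl5 kept its call in its own row, and with both changes none did.

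With copies summed, 7 members were called lower in Lyz2cre against WT, beside 4.76% of all rows tested lower and 2.27% higher, and 5 of them were among the 11, including Rpl7, Rpl9, Rpl17 and Rpl27. Rpl36a, not called in its own row (log2 fold change -0.43, adjusted p = 0.0518), was called with copies (-0.56, adjusted p = 0.0369, limma). The median of members with copies was -0.22, beside -0.16 for all rows tested. With copies and median-of-ratios scaling together, limma called 0 members, 9 were lower and 2 higher at an unadjusted p under 0.05, and the median was -0.04, beside -0.00 for all rows. Of all rows 1.90% were then called lower and 3.02% higher.

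**Figure D5:**
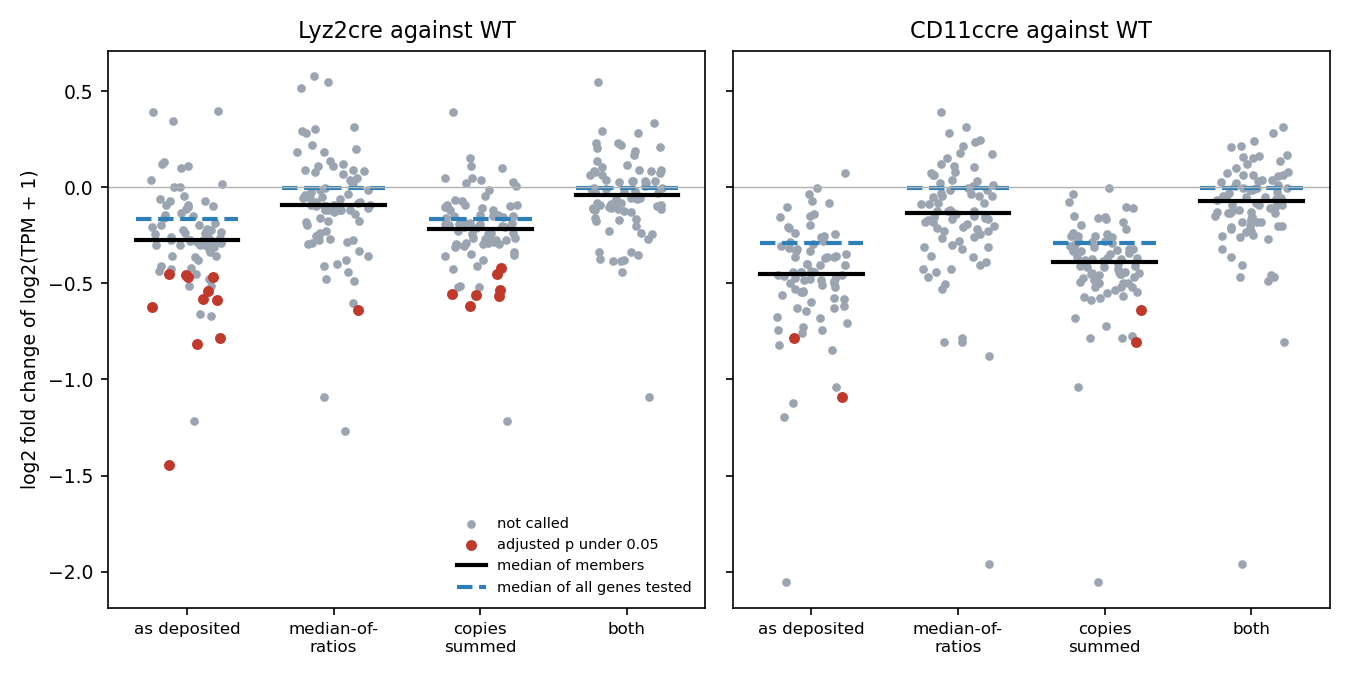
Log2 fold change of each member in Lyz2cre (left panel) and CD11ccre (right panel) against WT, from TPM as deposited, after median-of-ratios scaling, with copies summed, and with both, where red points have an adjusted p under 0.05. Black lines give the member median and dashed blue lines the median of all genes tested: in Lyz2cre the member median is -0.27, -0.09, -0.22 and -0.04 in that order.

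Among other members chosen by role are Rps6, Rpl11, Rps19, Rpsa, Rps27a and Rpl38. Rps6, the target of the S6 kinases, had 853.3, 507.3 and 707.0 TPM in Lyz2cre and 693.7 in CD11ccre, against 975.5, 1164 and 1066 TPM in WT. With copies the change was -0.18 in Lyz2cre (adjusted p = 0.250, limma). Rpl11, the partner of Rpl5 in binding Mdm2, had a log2 fold change of -0.26 in its own row (adjusted p = 0.437) and -0.29 with copies (adjusted p = 0.183). Rps19, mutated in human Diamond-Blackfan anaemia, had 1388, 1593 and 1454 TPM in Lyz2cre and 1337 in CD11ccre, against 1774, 1730 and 1214 TPM in WT, and its groups overlapped. Rpsa, also known as the laminin receptor, had a log2 fold change of -0.19, Rps27a, made as a fusion with ubiquitin, one of -0.29, and Rpl38, needed for Hox gene translation in mouse embryos, one of -0.36 in Lyz2cre (adjusted p = 0.310, 0.136 and 0.201, limma). None of these 6 passed the test in either knockout, in their own rows or with near-identical copies. Rps27a in CD11ccre lay at the threshold (log2 fold change -0.71, adjusted p = 0.0502, limma) and was called in 5 of 22 alternatives, over which its adjusted p ran from 0.0258 to 0.514.

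At the other end, 11 members had a log2 fold change above 0 in Lyz2cre, none of them called. Rps3, a small-subunit protein at the mRNA entry with no shared stretch, had 1250, 1552 and 1326 TPM in Lyz2cre and 1246 in CD11ccre, against 1323, 1266 and 1245 TPM in WT (log2 fold change 0.10 ± 0.11 SE, adjusted p = 0.608, limma). Rpl14 had 793.2, 765.7 and 814.6 TPM in Lyz2cre and 787.7 in CD11ccre, against 862.8, 775.4 and 735.8 TPM in WT, and its groups overlapped. After median-of-ratios scaling Rpl14 was at 795.9, 779.5 and 875.6 in Lyz2cre, against 763.6, 721.5 and 671.8 in WT. Rps3 was then at 1255, 1580 and 1425 in Lyz2cre, against 1171, 1178 and 1137 in WT. Both were among the 3 of 80 members wholly above WT on that scale, beside 13.8% of all genes. Rps7, the member with the highest change in TPM as deposited (0.40, adjusted p = 0.397, limma), had 167.3, 354.9 and 205.4 TPM in Lyz2cre and 183.8 in CD11ccre, against 184.2, 185.7 and 155.2 TPM in WT. With Gm6472 and its other copies its change was -0.19 (adjusted p = 0.207), so its direction turned with the rows counted. The same held for Rpl12, Rpl35 and Rps12, whose uncalled changes were 0.34, 0.12 and 0.13 in their own rows and -0.26, -0.16 and -0.11 with copies.

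Lyz2cre replicate 2 was most often the highest of its group among the members. The same counts over all genes are not given, so a trait of the library cannot be told from one of this family. It was the highest of its group for 51 of 80 own rows and for 62 of 80 sums with copies, with a median difference from the other pair of libraries of 0.11 and 0.14 on the log2 scale. It differed from them by more than 0.5 for 12 members in their own rows. Lyz2cre replicates 1 and 3 were highest for 13 and 16 own rows and differed by more than 0.5 for 5 and 6. Rps12 had 510 TPM there, against 203 and 95.8 TPM in Lyz2cre replicates 1 and 3, and Rpl35 had 844 TPM, against 506 and 474 TPM. Rpl27 was lower there, at 118 TPM, and so was Rps23, at 171 TPM. With copies, Rps29 had 2955 TPM there, against 1599 and 1456 TPM in the other Lyz2cre libraries and 1644 to 1991 TPM in WT. Without this library 1 member was called lower, as without Lyz2cre replicate 1, and with median-of-ratios scaling as well, 0 were.

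In CD11ccre against WT, 2 of 80 members were called lower, Rpl5 and Rpl17, beside 1.99% of all genes, and 0 higher, beside 0.895%. The single CD11ccre library is assumed in this fit to vary like the others. The log2 fold change was -1.09 ± 0.18 for Rpl5 (SE, adjusted p = 0.0304) and -0.78 ± 0.15 for Rpl17 (SE, adjusted p = 0.0432, limma), from the values given above. The member median was -0.45, beside -0.29 for all genes, and 79 of 80 members lay below 0, beside 73.5% of all genes. CD11ccre lay below all WT libraries for 68 of 80 members (85.0%), beside 50.5% of all genes, and above them for 0, beside 13.0%. Both calls were lost when any one of the WT or Lyz2cre libraries was left out.

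Scaling moved this comparison further. With median-of-ratios scaling 0 members were called, beside 0.746% of all genes lower and 1.33% higher, 6 were lower and 0 higher at an unadjusted p under 0.05, and the median was -0.13, beside -0.01 for all genes. CD11ccre then lay below all WT libraries for 40 of 80 members, beside 29.0% of all genes, and above them for 12, beside 29.4%. With copies, 2 members were called lower, Rpl17 among them, beside 2.04% of rows lower and 0.905% higher, and with copies and scaling together 0 were, beside 0.737% lower and 1.37% higher. In that last setting Rpl5 had a log2 fold change of 0.03 (adjusted p = 0.950). The CD11ccre and Lyz2cre comparisons share the WT libraries, so their likeness is not a separate result.

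CD11ccre against Lyz2cre gave 0 called members by limma, beside 0.0702% of all genes lower and 0.0439% higher, with 2 lower and 0 higher at an unadjusted p under 0.05. The member median was -0.17, beside -0.12 for all genes, and -0.03 after median-of-ratios scaling, where 0 members were called, beside 0.0702% of all genes lower and 0.0790% higher.

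Some ribosomal parts fall outside the name rule. Of 9 tested in Lyz2cre against WT, 1 was called lower (11.1%, beside 4.60% of all genes) and 0 higher (beside 2.17%), with a median of -0.37, beside -0.16 for all genes. That gene was Rpl22l1, the paralogue of Rpl22, with 235.5, 216.0 and 229.6 TPM in Lyz2cre and 228.2 in CD11ccre, against 334.9, 377.6 and 379.8 TPM in WT. Its groups were far apart, at a log2 fold change of -0.68 ± 0.10 (SE, adjusted p = 0.0119), and it passed after median-of-ratios scaling too (-0.50, adjusted p = 0.0484, limma). Rpl22 had a change of -0.35 ± 0.09 (SE, adjusted p = 0.0564, limma). Fau, made as a fusion with a ubiquitin-like part, had a change of -0.36 and Rps3a1 one of -0.37, with adjusted p of 0.222 and 0.0551.

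Of 47 genes listed as translation factors, 6 were called lower (12.8%, beside 4.60% of all genes) and 0 higher (beside 2.17%) in Lyz2cre against WT. Their median was -0.21, beside -0.16 for all genes. Those called were the factors Eif1, Eif1b, Eif2s2, Eif4g2 and Eif6, and Tpt1, which the list also held. After median-of-ratios scaling 1 was called lower (2.13%, beside 1.85% of all genes). Eif1, which guides start codon choice, had 880.5, 740.7 and 779.2 TPM in Lyz2cre and 834.6 in CD11ccre, against 1282, 1313 and 1428 TPM in WT, and alone kept its call after scaling (log2 fold change -0.57, adjusted p = 0.0262, limma). Eif6, which keeps the subunits apart, had 91.75, 88.84 and 104.2 TPM in Lyz2cre and 93.44 in CD11ccre, against 164.0, 173.3 and 124.1 TPM in WT. Eef1a1 and Eef2, the elongation factors encoded by TOP messages, were not called, at 0.10 and 0.09 (adjusted p = 0.534 and 0.761). Eef1a1 had 5937 to 6367 TPM in Lyz2cre and 6332 in CD11ccre, against 5471 to 6009 TPM in WT.

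Of 60 ribosome biogenesis genes tested, 2 were called lower (3.33%) and 0 higher in Lyz2cre against WT, near the 4.60% lower and 2.17% higher of all genes. Their median was -0.11, beside -0.16 for all genes. Wdr75, a part of the small-subunit processome, had 33.92, 25.99 and 24.15 TPM in Lyz2cre and 25.89 in CD11ccre, against 57.94, 48.62 and 53.89 TPM in WT (log2 fold change -0.92, adjusted p = 0.0207, and after scaling -0.74, adjusted p = 0.0337, limma). The other was Nop10, a part of the pseudouridylating particles, at -0.66 (adjusted p = 0.0485). Npm1 and Ncl, abundant nucleolar proteins, were at -0.12 and -0.13 (adjusted p = 0.552 and 0.619).

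Of 32 mTORC1 and TOP regulators tested 0 were called in Lyz2cre against WT by limma, beside 4.60% of all genes lower and 2.17% higher, and 8 were lower and 4 higher at an unadjusted p under 0.05. Their median was -0.05, beside -0.16 for all genes. With median-of-ratios scaling 1 of 32 was called higher, a share near the 2.97% of all genes. It was Mtor, the kinase itself, with 9.91, 8.35 and 5.53 TPM in Lyz2cre and 4.10 in CD11ccre, against 1.91, 3.39 and 3.31 TPM in WT (log2 fold change 1.34, adjusted p = 0.0394, and 1.20, adjusted p = 0.0510, without that scaling). Larp1, which binds the TOP motif, had 36.23, 36.33 and 35.18 TPM in Lyz2cre and 25.21 in CD11ccre, against 39.62, 40.86 and 37.56 TPM in WT, a log2 fold change of -0.13 in Lyz2cre (adjusted p = 0.539). Of 18 p53 and ribosome stress genes tested limma called 0, beside 4.60% of all genes lower and 2.17% higher. At an unadjusted p under 0.05, 5 were lower and 1 higher, and their median was -0.24, beside -0.16 for all genes. With median-of-ratios scaling 3 were lower and 4 higher at that cutoff (limma), and their median was -0.06, beside -0.00 for all genes. Mitochondrial ribosomal protein genes, whose products form the separate ribosome of mitochondria, had 7 of 77 called lower (9.09%, beside 4.60% of all genes) and 0 higher (beside 2.17%), with a median of -0.20, beside -0.16 for all genes. After median-of-ratios scaling 2 were called lower (2.60%, beside 1.85%). Mrps15 had 80.17, 80.51 and 70.59 TPM in Lyz2cre and 77.06 in CD11ccre, against 125.2, 137.9 and 139.3 TPM in WT (log2 fold change -0.79, adjusted p = 0.00997, limma).

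The transcription starts of members held short pyrimidine runs, as in the TOP motif, more often than all starts in the table. RefSeq promoter windows of GRCm38.p6 were at hand for 60 of the 81 members, in 72 windows, and each was read on the gene's strand from 20 bases before to 20 bases after the start. CTTTC stood in 26.4% of member windows and in 5.49% of all 32851 windows, and CTCTTT, which can overlap it, in 12.5% and in 1.54%. Over the whole 300 bases, CCGGAAG or its reverse complement CTTCCGG, the core bound by ETS factors, stood in 36.1% of member windows and 8.86% of all, and TATAAA, searched on the gene's strand only, in 6.94% and 8.32%. These are letter matches only. By gene, CTCTTT stood around the start in 9 of the 60 members. Uncalled members such as Rplp0 and Rps3 also lacked it within 15 bases of the start. Whether a motif goes with a call was not tested. As picked examples of how the starts differ, 3 with CTCTTT (capitals) and those of the called members Rpl27 and Rpl5 follow. Each is shown with 15 bases on either side of the start.
Rpl35: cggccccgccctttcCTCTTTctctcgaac
Rps6: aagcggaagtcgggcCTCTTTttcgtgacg
Rps9: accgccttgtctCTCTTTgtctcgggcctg
Rpl27: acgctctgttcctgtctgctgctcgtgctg
Rpl5: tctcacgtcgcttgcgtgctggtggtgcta
They lie at chr2:39005117-39005146 on the minus strand, chr4:86857353-86857382 on the minus strand, chr7:3704026-3704055 on the plus strand, chr11:101442230-101442259 on the plus strand and chr5:107900513-107900542 on the plus strand, in that order. Rpl35, Rps6 and Rps9 were not called in either knockout, with log2 fold changes of 0.12, -0.66 and -0.18 in Lyz2cre (adjusted p = 0.780, 0.0833 and 0.538, limma).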

How the data were processed

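Libraries were made with NEBNext poly(A) selection and directional kits and sequenced as single reads on a NextSeq 500 (per the labels). Tools listed in the submitters' processing notes are RSEM 1.3.1, STAR 2.7.0d and cutadapt 2.3, with the build mm10 and no parameters. The authors deposited 1 table of TPM (47643 genes, 7 libraries, 2 decimals). The sources used here give no annotation, strand setting or handling of reads that match several genes.

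The members and gene lists were chosen with earlier results of these data known. The main test was limma 3.58.1 (R 4.3.3) on log2(TPM + 1), which understates the change of low genes, over genes averaging 1 TPM or more. All 7 libraries entered with 1 coefficient per genotype and a trend of variance on level (degrees of freedom: 4 residual, 3.35 prior), two-sided, with Benjamini-Hochberg adjustment over 11397 genes at 0.05. CD11ccre, with 1 library, contributes nothing to the residual spread. No test was run on a sum or list, and lists are described by counts and medians.

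Copy rows were found with BLAST 2.17.0 in GENCODE M21 transcripts (at least 95% identity over at least 80% of the coding sequence, a transcript at most 1.5 times the member's longest, outside the member's locus), and their TPM was added to the member's. No 2 libraries were copies of each other (at most 1.79% identical values). Tables were handled with Python 3.11.15 and pandas 2.3.3.

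Members were named by role, by level (5 highest per subunit, 3 lowest above 0) and by call (up to 8 per direction and comparison). Rpl12, Rps12, Rps7, Rps23, Rps29, Rpl35, Rps3, Rpl14, Rps16 and Rps28 were described further after their values were seen. Of each list up to 4 called genes with the smallest p were to be named, together with genes fixed by role. Eif2s2 and Eif4g2 are named as part of the full count. Deviations of same-numbered Lyz2cre and WT replicates were hardly correlated (-0.01, 0.04 and 0.07). The WT library correlated best with its own number for replicates 2 and 3, and not for replicate 1. Numbers were not taken as pairs, and a fit with the replicate block is given below. Some members and listed genes are counted in the totals, but their own values are not reported here.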

Additional observations from a re-analysis of the deposited data

How the results depend on the processing

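With median-of-ratios scaling the counts of members called lower were 1 in Lyz2cre and 0 in CD11ccre against WT. The medians were then -0.0924 in Lyz2cre and -0.1337 in CD11ccre against WT, and -0.0323 in CD11ccre against Lyz2cre, and the summed TPM 82399 in CD11ccre and 89123 in WT. Quantile normalization gave 2 and 0 called lower with medians of -0.0915 and -0.2092. Rescaling without mitochondrially encoded genes, Ftl1, Fth1, Chil3 and Lyz2 gave 3 and 0, medians of -0.1792 and -0.2809, and sums of 100892 (Lyz2cre), 94738 (CD11ccre) and 113421 (WT). With protein-coding rows only, 22 and 16 were called lower, and sums were 89982, 80299 and 110620 in Lyz2cre, CD11ccre and WT. Relative to the sum of all other rows, 4 were called lower in CD11ccre, and sums were 88882, 78371 and 108595 in the same order. Adding rows named -ps gave 7 and 4 called lower, with sums of 94305, 83872 and 111571, and adding near-identical copies 7 in Lyz2cre, with sums of 112049, 99520 and 131261. Copies with median-of-ratios scaling gave 0 and 0, medians of -0.0378, -0.0723 and -0.0307 (CD11ccre against Lyz2cre), and sums of 115560, 112836 and 119425. There, 2 called members turned in sign: Rpl31 in Lyz2cre (0.0058) and Rpl5 in CD11ccre (0.0288). Median-of-ratios scaling without Lyz2cre replicate 2 gave 0 and 0, with medians of -0.1509, -0.1328 and 0.0059.

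Without a filter on low values 1 and 1 were called lower, without the trend 1 and 0, and with the replicate block 3 in Lyz2cre (Rpl5, Rpl10a, Rpl27) and 0 in CD11ccre. In CD11ccre a mean TPM of at least 5 and robust fitting each gave 5. Leaving out 1 replicate in turn gave 0 to 6 called lower in Lyz2cre and 0 to 0 in CD11ccre, with 0 higher throughout and 0 either way in CD11ccre against Lyz2cre. The medians then ran from -0.3415 to -0.2355, from -0.4742 to -0.4115 and from -0.1965 to -0.1224, and the sums from 78590 to 83252 TPM in Lyz2cre and 96409 to 98728 in WT. The 6 translation lists had 16 called genes in all in Lyz2cre against WT. That count was 5 with no filter, 6 with median-of-ratios scaling, 5 with quantile normalization, 5 without the abundant genes, 26 with protein-coding rows, 4 without the trend, 4 with the replicate block, 0 with scaling and no Lyz2cre replicate 2, 6 with scaling and copies, and 3 to 8 without 1 replicate. The cause of these changes was not tested. Without a replicate or with the block the residual degrees of freedom were also fewer.

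Of 68 pairs of a named member and a comparison, 24 changed an uncalled sign in at least 1 of the 23 alternatives, so no direction is claimed for uncalled members. Shares of all genes called are given above only for the main fit, median-of-ratios scaling, near-identical copies, and both together. Counts of called genes in the other fits are therefore not read as a result about the members or lists. The copy search and the scaling without Lyz2cre replicate 2 were chosen after seeing the data. Depth cannot be recovered from TPM, and own-row values of members with near-identical copies are uncertain.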
